A study of Mus musculus with 6 samples.

Results

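Nxpe4, Capn2, Ahnak and Rnd3 are 4 genes whose array signal was far lower in marrow myeloid cells with a strong Hdc reporter than in those with little or none. They were chosen by the size of that fall, the difference between the same 6 arrays described here, from among large falls outside the usual monocyte markers, and every probe set annotated to one of the 4 symbols was kept apart. They are 4 of 18194 genes that had a probe set with a single gene symbol, and 4 of 10810 genes tested. Since the fall chose them, the differences between the groups in these 4 genes are descriptions and carry no test.

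Affymetrix arrays were hybridised with total RNA of myeloid cells sorted from marrow of the femur and tibia. The donors were female HdcGFP mice with a C57BL/6 background. In these reporter mice green fluorescence stands for Hdc, the gene of histidine decarboxylase, which makes histamine. The GFP_min group (3 arrays) was sorted as HdcGFP-/lo CD11b+ Gr1+ and the GFP_plus group (3 arrays) as HdcGFP+/hi CD11b+ Gr1+, so both groups carry the reporter and share both surface markers. No treatment, no age and no separate mice are named in the labels. The p-values below therefore reflect only how far these 6 samples spread, and that spread could be technical. The free-text description of GFP_min replicate b reads Gr1-, while its sorted-cell label reads Gr1+ like the other 5.

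Values are log2 expression as deposited, and differences are GFP_plus minus GFP_min. The array medians lay between 2.82 and 2.88, correlations were 0.996 to 0.997 within a group and 0.978 to 0.982 between groups. All 9 of the 9 monocyte markers tested were lower in GFP_plus (limma, adjusted p under the threshold of 0.05), with a mean level of 11.9 to 12.0 on the GFP_min arrays and 7.31 to 7.54 on the GFP_plus arrays. Of 9 neutrophil markers 0 were lower, also at an unadjusted p under 0.05, and 4 were higher in limma's test (13.5 to 13.6 against 13.7 to 13.8). Those 4 were Csf3r (0.71), Cxcr2 (0.55), Mmp9 (0.30) and Mmp8 (0.19). The 5 not called, S100a8, S100a9, Ltf, Camp and Ngp, had GFP_min means of 14.06 to 14.90. Whether signals this bright leave room to show a change was not tested. Centring on the poly-A control RNAs added in labelling shifts every difference by -0.41, so small marker differences have no settled direction. Of 8 dendritic cell markers 6 were lower and 1, Itgax, was higher (mean level of the list 5.60 to 5.82 against 3.88 to 3.94), and 5 of 5 basophil and mast cell markers were higher (2.64 to 2.68 against 4.68 to 4.76). Both tested eosinophil markers and 2 of 3 erythroid and platelet markers were higher, while 1 of 4 B cell markers and both tested T and NK cell markers were lower. Over all tested genes 27.6% were lower and 21.0% higher. The erythroid and platelet calls were Itga2b (0.35) and Gp1bb (0.42), and the T and NK calls were Gzma and Klrd1. Cd3e, Cd3g and Ncr1 lay below the median on every array, as did the eosinophil markers Ccr3 and Il5ra. The part of these marker shifts in the falls below was not tested. In bulk RNA of this kind, fewer cells of a type and less RNA per cell cannot be told apart.

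Calpain-2, encoded by Capn2, is the catalytic subunit of m-calpain, a protease that calcium switches on. It works as a pair with the small subunit Capns1, is held back by the inhibitor calpastatin (Cast) and cuts proteins that anchor the actin cytoskeleton to integrins. Ahnak is a giant scaffold protein at the inner face of the plasma membrane, where it binds the complex of S100a10 and annexin A2 and the beta subunits of voltage-gated calcium channels. Rnd3 is an atypical small GTPase that stays bound to GTP. It counters the kinase Rock1, and so lowers actomyosin contraction. Nxpe4 belongs to a family named after a neurexophilin-like and a PC-esterase-like domain, whose function is poorly understood.

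The promoters are shown because the choice by signal did not use them, and because genes with falls of like size differed in them. The 250 bases before each listed start site were read from RefSeq, mouse build GRCm38.p6, in which all 4 genes matched by symbol. They are chr9:48361791-48362040 on the plus strand for Nxpe4, chr1:182517611-182517860 on the minus strand for Capn2, chr19:8989034-8989283 on the plus strand for Ahnak and chr2:51149112-51149361 on the minus strand for Rnd3. For Capn2, Ahnak and Rnd3 the listed start is the first base of the annotated protein-coding gene. For Nxpe4 it lies 200037 bases inside the annotated span, which runs from 48162004 to 48400025 on chromosome 9, so other start sites of that gene are not shown. The sequences read 5′ to 3′ on the gene's strand, in lower case, with matches to the motifs searched in capitals.
Nxpe4: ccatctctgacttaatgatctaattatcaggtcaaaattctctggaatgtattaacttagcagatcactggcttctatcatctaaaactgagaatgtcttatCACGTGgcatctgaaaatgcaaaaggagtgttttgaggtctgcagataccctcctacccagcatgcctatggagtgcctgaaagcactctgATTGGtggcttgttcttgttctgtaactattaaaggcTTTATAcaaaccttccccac
Capn2: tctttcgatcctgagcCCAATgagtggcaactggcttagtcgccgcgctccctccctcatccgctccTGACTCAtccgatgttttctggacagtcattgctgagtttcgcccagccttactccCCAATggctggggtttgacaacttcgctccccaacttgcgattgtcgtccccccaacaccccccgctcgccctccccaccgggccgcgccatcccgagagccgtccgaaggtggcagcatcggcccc
Ahnak: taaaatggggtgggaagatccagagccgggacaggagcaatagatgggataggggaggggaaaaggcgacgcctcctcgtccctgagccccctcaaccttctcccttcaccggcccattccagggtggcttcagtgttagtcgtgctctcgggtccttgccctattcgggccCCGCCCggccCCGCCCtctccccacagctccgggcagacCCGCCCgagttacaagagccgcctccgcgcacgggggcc
Rnd3: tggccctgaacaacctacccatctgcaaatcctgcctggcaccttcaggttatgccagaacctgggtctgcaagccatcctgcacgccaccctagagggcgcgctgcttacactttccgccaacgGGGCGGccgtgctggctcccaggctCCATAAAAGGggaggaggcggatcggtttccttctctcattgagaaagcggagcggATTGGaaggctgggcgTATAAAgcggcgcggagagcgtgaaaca

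10 motifs were searched on both strands. They were the TATA box TATAAA, the CCAAT box CCAAT, the GC box GGGCGG, the AP-1 motif TGACTCA, the E-box CACGTG, the C/EBP motif TTGCNNAA, the PU.1 motif GAGGAAGT, the IRF motif (GAAA, any 2 bases, GAAA), the CRE core TGACGT and the CArG box. No motif match was common to the 4 windows, and no 2 of the matches shown in one window overlap. Nxpe4 had a TATA box on the opposite strand, 20 to 15 bases before the start, a CCAAT box on the opposite strand and an E-box. Capn2 had 2 CCAAT boxes and an AP-1 motif, 183 to 177 bases before the start. Ahnak had 3 GC boxes on the opposite strand within the last 78 bases. Rnd3 held the widest mix, with a TATA box 28 to 23 bases before the start, a CCAAT box, a GC box and a CArG box at 100 to 91 bases, which is the motif read by serum response factor.

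Among all 32851 RefSeq windows of the same length, 33.8% held a CCAAT box, 32.7% a GC box and 12.4% a TATA box. The rarer motifs were the E-box (6.02%), the AP-1 motif (4.46%) and the CArG box (1.47%). The C/EBP, PU.1, IRF and CRE letters stood in none of the 4 windows, against 9.56%, 2.44%, 2.98% and 6.47% of all windows. A match is a string of letters and not a bound site, and its absence says only that these letters are not in this window. In base composition the Nxpe4 window stood apart from the other 3. It was 40.8% GC with 1 CpG, against 62.8% and 19 for Capn2, 66.4% and 18 for Ahnak and 60% and 16 for Rnd3. The median window was 52.4% GC with 6 CpG. Only the Nxpe4 window precedes a start inside the annotated gene, and windows at its other starts were not read.

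Nxpe4 was measured by 1 probe set, 1456111_at. It read 10.08, 10.03 and 10.04 on the GFP_min arrays and 3.27, 3.49 and 3.35 on the GFP_plus arrays. All 3 GFP_plus values lay near the array medians, and the groups were 6.54 apart at their closest. The means were 10.05 ± 0.03 and 3.37 ± 0.11 (SD, n = 3 each), a difference of -6.68 or 102-fold. With the 60th percentile of each array as a floor, under which 1 GFP_plus array fell, the fold was 100.1.

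Capn2, the calpain subunit, also had 1 probe set, 1416257_at. Its values were 9.31, 9.28 and 9.27 in GFP_min and 3.30, 3.00 and 3.15 in GFP_plus. The GFP_min arrays differed from each other by 0.03 at most and the GFP_plus arrays by 0.30, with no overlap. Group means of 9.29 ± 0.02 and 3.15 ± 0.15 gave a difference of -6.13, or 70.2-fold (SD, n = 3 each). All 3 GFP_plus values were above the array medians but below the 60th percentile of their arrays, and taken against that percentile Capn2 was at least 61.0-fold lower.

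Ahnak, the scaffold gene, was covered by 4 probe sets that did not read alike. The brightest, 1452217_at, gave 11.63, 11.52 and 11.57 in GFP_min against 5.69, 5.73 and 5.14 in GFP_plus. Of the 4 genes' brightest probe sets it was the only one to stay well clear of the array medians in GFP_plus, and GFP_plus replicate c was the lowest array. The means of 11.57 ± 0.06 and 5.52 ± 0.33 (SD, n = 3 each) differed by -6.05, or 66.5-fold.

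On 1428057_a_at Ahnak read 4.70, 4.71 and 4.49 in GFP_min and 3.02, 3.25 and 2.86 in GFP_plus, a difference of -1.59. On 1428058_at it read 4.57, 4.28 and 4.16 against 2.42, 2.88 and 3.04, a difference of -1.55. Both dimmer probe sets were lower in GFP_plus without overlap. Their GFP_plus values lay at the array medians, with 1 array of each below its median, so the size of these falls is limited by the background and was not compared with that of the bright probe set. The last one, 1429866_at, lay below the array median on all 6 arrays (1.74, 1.68 and 1.81 against 1.91, 1.59 and 1.88) and was not tested. It therefore says nothing about the gene in either group, and the cause of the unequal probe set levels was not tested.

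Rnd3, the atypical GTPase, had 2 probe sets. The brighter one, 1416700_at, read 8.93, 8.40 and 8.89 in GFP_min and 2.68, 2.48 and 2.41 in GFP_plus. GFP_min replicate b, the sample with the divergent description, was the lowest of its group here, and every GFP_plus value lay below the median of its array. With means of 8.74 ± 0.29 and 2.52 ± 0.14 (SD, n = 3 each) the difference was -6.21 on the deposited values. Because GFP_plus was below the array medians, the fold is a bound taken against those medians, and Rnd3 was at least 58.7-fold lower. Taken against the 60th percentile of each array, the bound was 41.7-fold.

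On the second probe set, 1416701_at, Rnd3 read 4.91, 5.12 and 4.61 in GFP_min and 1.99, 2.28 and 2.20 in GFP_plus. Here GFP_min replicate b was the highest of its group, and GFP_plus was again below the medians of all its arrays. Means of 4.88 ± 0.26 and 2.15 ± 0.15 (SD, n = 3 each) gave -2.72, and a bound of at least 4.04-fold, or 2.87-fold against the 60th percentile.

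**Figure D1:**
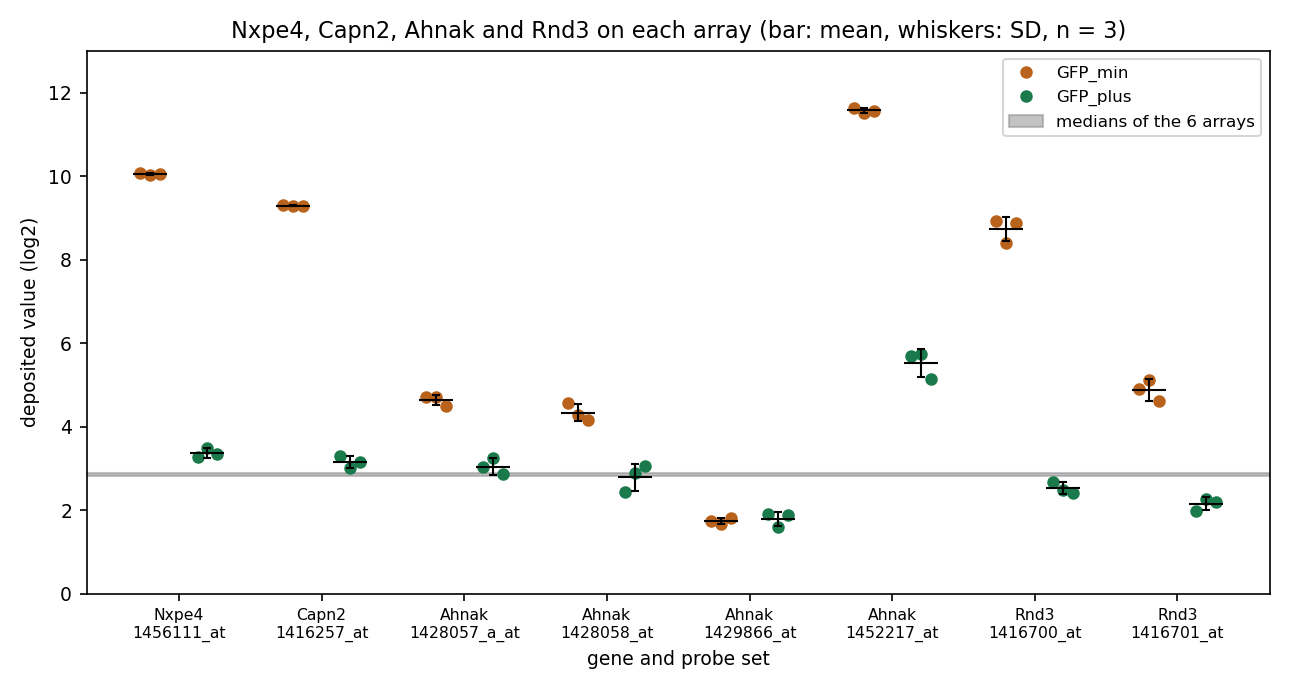
Deposited log2 value of each of the 8 probe sets of Nxpe4, Capn2, Ahnak and Rnd3 on the 3 GFP_min and the 3 GFP_plus arrays, with the mean (bar) and SD (whiskers) of each group; the grey band spans the 6 array medians. GFP_min lies above GFP_plus without overlap in 7 probe sets, and Ahnak 1429866_at lies below the band in both groups.

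Of the 8 probe sets, 7 passed the filter on low values (above the median of their own array on at least 3 arrays). In all 7 the groups did not overlap and GFP_plus was lower, which was true of 27.2% of all tested probe sets. Because the fall chose these genes, the count for the 7 is a description and tests nothing. Both Rnd3 probe sets passed the filter through the 3 GFP_min arrays alone. A fall of at least 5 log2 was found in 60 of the 22956 probe sets (0.261%) and in 41 of the 10810 genes (0.379%). By their brightest probe set, the 4 genes are among those 41 through the way they were chosen. Leaving out any 1 sample moved the 4 differences only slightly. They ran from -6.74 to -6.63 for Nxpe4, from -6.21 to -6.06 for Capn2, from -6.16 to -5.86 for Ahnak and from -6.38 to -6.12 for Rnd3. Without GFP_min replicate b they were -6.69, -6.14, -6.08 and -6.38 in the same order.

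**Figure D2:**
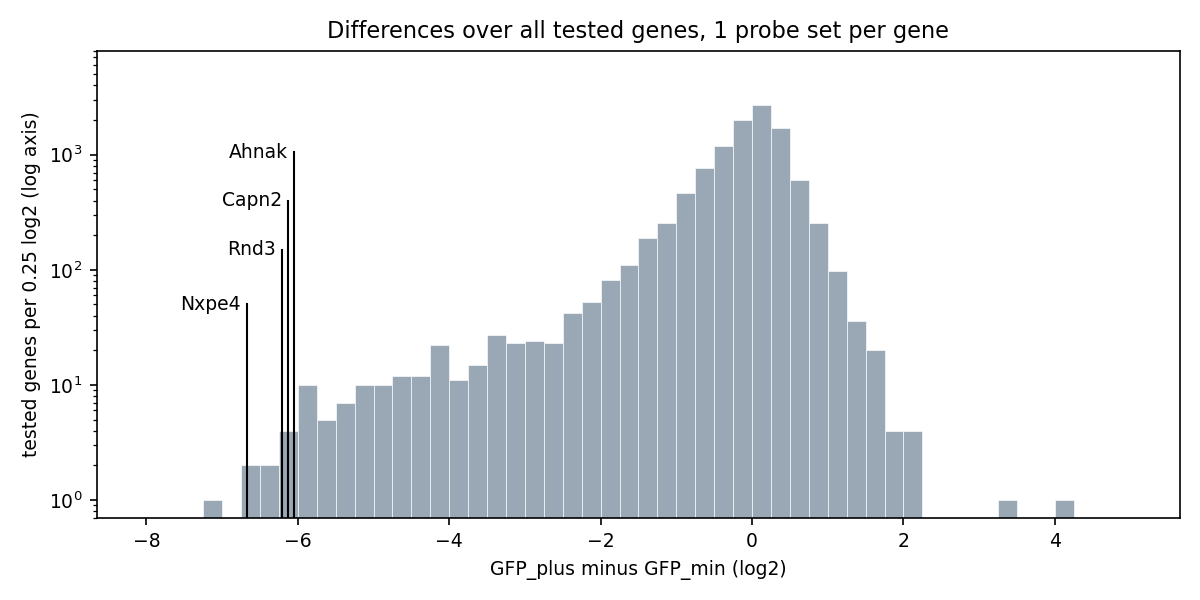
Histogram of the difference GFP_plus minus GFP_min (log2) over the 10810 tested genes, each represented by its brightest tested probe set, on a log count axis in bins of 0.25 log2, with vertical lines at the 4 genes. The 4 lines lie between -6.68 and -6.05, in the sparse lower tail, and the median of all genes is 0.0023.

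Signs of RNA quality and of stray cells were read beside these falls. The gap between the 3′ and 5′ control probe sets of Gapdh was 0.37, 0.32 and 0.26 in GFP_min and 0.65, 0.59 and 0.66 in GFP_plus. It was larger by 0.32 in GFP_plus (exact permutation test, two-sided, p = 0.1, the smallest that 3 against 3 arrays allow), and the gap of beta-actin was larger by 0.061 (exact p = 0.2). Capn2, Ahnak and Rnd3 are also known from fibroblasts and endothelium, so markers of those cells were read. Of 8 stromal and endothelial markers, 5 (Col1a2, Lepr, Cdh5, Pecam1 and Kdr) were below the median of every GFP_min array, and the list's mean level was 2.49 to 2.65 in GFP_min and 2.54 to 2.64 in GFP_plus. Of the 3 tested, 0 were called by limma, and 0 at an unadjusted p under 0.05.

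Relatives, partners and targets of the 4 genes were read beside them. The lists held 45 tested genes apart from the 4 themselves. In GFP_plus 9 were lower (20%) and 14 higher (31.1%), where over all 10810 genes 2988 were lower (27.6%) and 2275 higher (21.0%; limma, adjusted p under 0.05). The median difference was 0.098 in the lists and 0.0023 over all genes. These counts turn with the scaling. Over all genes, lower against higher was 2091 against 4472 after centring on the tested probe sets, 1213 against 7358 on ribosomal protein genes and 6028 against 420 on the poly-A control RNAs added in labelling. For the lists it was 7 against 26, 5 against 37 and 24 against 1. The scalings shift every difference by 0.20, 0.53 and -0.41, so small differences have no settled direction. The 6 genes called with a difference of 1 log2 or more (5 lower and 1 higher) kept their direction and call under every alternative in which they were tested. In these alternatives each gene was read by its brightest tested probe set only, and Limk1 was called on 1 of its 3 probe sets. Plxnb2 was not tested with the filter on all 6 arrays, since it lay below the medians in GFP_plus.

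**Figure D3:**
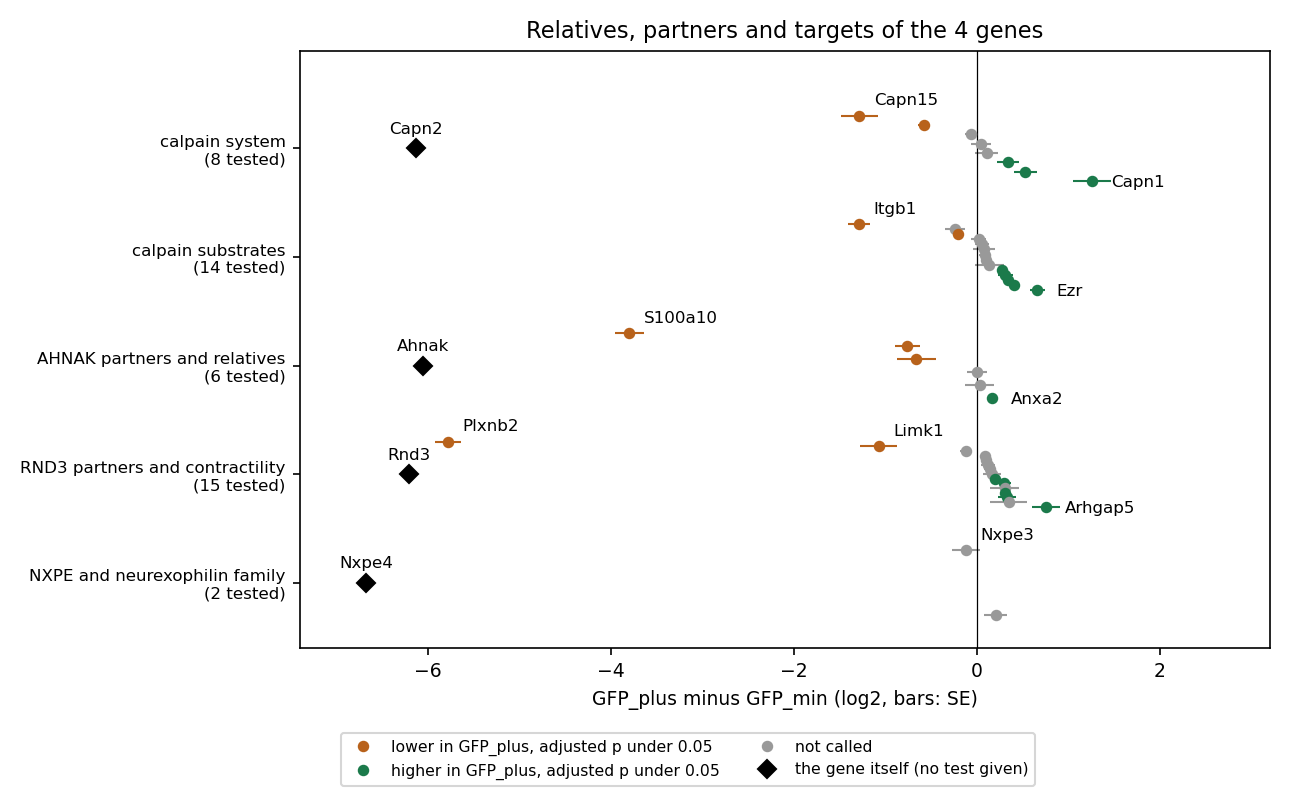
Difference GFP_plus minus GFP_min (log2, bars give the SE) of the tested genes in the 5 lists, 1 point per gene, coloured by limma's call at an adjusted p under 0.05, with the gene each list was drawn up for as a black diamond. Plxnb2 and S100a10 stand out on the left at -5.79 and -3.80, while most other genes lie within 1 log2 of 0.

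In the calpain system, Capn1, the other classical calpain, was higher where Capn2 was lower, and their common subunit was not called. Of 8 tested genes 2 were lower and 3 higher, with a median of 0.07 (-0.33 after centring on the poly-A controls). Capn1, the catalytic subunit of mu-calpain, read 7.32, 8.05 and 7.30 in GFP_min and 8.80, 8.52 and 9.11 in GFP_plus. It was higher by 1.26 (SE 0.21, limma adjusted p = 0.000912), and both of its probe sets were called. Capns1, the small subunit that both calpains need, was at 9.95 ± 0.07 and 9.89 ± 0.08 (SD, n = 3 each), a difference of -0.06 that was not called (limma adjusted p = 0.533). Cast, the inhibitor, fell by 0.58 (limma adjusted p = 5.22e-05; 2 of 3 probe sets), but by 0.057 and without a call after centring on ribosomal protein genes. Capn15, an atypical calpain, fell by 1.29 (SE 0.20, limma adjusted p = 0.000572; 2 of 3 probe sets). Capns2 and Capn12 were higher by 0.53 and 0.34, calls that both ended under the poly-A centring, where Capn12 turned to -0.068. Capn12 was also not called without GFP_min replicate a (0.26) or b (0.31) or without GFP_plus replicate a (0.29) or c (0.32). Its GFP_min values of 2.73, 2.82 and 3.07 lay near the array medians. Another 7 calpain genes on the array (Capn3, Capn5, Capn6, Capn8, Capn9, Capn11 and Capn13) did not pass the filter.

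Among known calpain substrates, mostly proteins that link actin to the membrane, Itgb1 was lower and Ezr higher. Of 14 tested, 2 were lower and 5 higher, with a median of 0.09. On the poly-A scale 7 were lower and 0 higher, with a median of -0.32. Itgb1, the integrin beta-1 chain, fell by 1.29 from 8.10 ± 0.06 to 6.81 ± 0.18 (SD, n = 3 each; limma adjusted p = 2.01e-05; 2 of 3 probe sets). Ezr (ezrin) was higher by 0.66 and Actn1 (alpha-actinin) by 0.41, while Flna (filamin A), Tln1 (talin) and Pxn (paxillin) were higher by 0.34, 0.31 and 0.27. On the poly-A scale none of these 5 rises was called, and Flna, Tln1 and Pxn turned to -0.066, -0.099 and -0.13. The fall of Sptbn1 (beta-spectrin, -0.20) was 0.33 upward on the ribosomal scale. Other substrates such as Vcl (vinculin, 0.08), Sptan1 (0.05) and Itgb2 (0.10) were not called.

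Around Ahnak, one of its closest partners fell with it and the other did not on the deposited scale. S100a10 read 11.93, 11.47 and 11.89 in GFP_min and 7.72, 8.29 and 7.88 in GFP_plus on its brightest probe set. It fell by 3.80 (SE 0.16, limma adjusted p = 7.62e-08), and the other 2 probe sets differed by -5.54 and -2.67. Anxa2, the annexin that pairs with S100a10, was at 13.29 ± 0.05 and 13.45 ± 0.07 (SD, n = 3 each), a difference of 0.16 that was called in 1 of 2 probe sets (limma adjusted p = 0.0144). That call ended in 4 alternatives, and the poly-A scale turned it to -0.24, a call in the lower direction (limma adjusted p = 0.0344). Among the 4 were the fits without GFP_min replicate c (0.15) and without GFP_plus replicate a (0.16). Of 6 tested partners and relatives 3 were lower and 1 higher. The list's median of -0.33 was 0.036 without the filter, 0.015 with a filter on all 6 arrays and 0.20 on the ribosomal scale.

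The other 2 that fell were dim. Cacna1d, a calcium channel subunit, differed by -0.76 (limma adjusted p = 0.00129) and was below the medians of the GFP_plus arrays, at least 1.28-fold lower. Its GFP_min level of 3.22 was itself not far above the medians, and on the ribosomal scale the difference was -0.23 and not called. Myof (myoferlin) differed by -0.66 (limma adjusted p = 0.0283), a call that ended in 5 alternatives, 2 of them leaving out GFP_min replicate a or GFP_plus replicate a, with -0.46 and -0.48. Cacnb1, a beta subunit of the kind Ahnak binds, differed by 0.00088 and Plcg1 by 0.03, and neither was called. Ahnak2, Dysf, Cacna1c, Cacna1s, Cacnb2 and Cacnb4 did not pass the filter.

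Of 15 tested partners of Rnd3 and genes of actomyosin contraction, 2 were lower and 5 higher, with a median of 0.16 (-0.24 on the poly-A scale). Plxnb2, a plexin receptor for semaphorins of a class that binds Rnd proteins, read 8.03, 8.20 and 7.88 in GFP_min and 2.25, 2.16 and 2.34 in GFP_plus. The fall of 5.79 (SE 0.14, limma adjusted p = 1.77e-09) ended below the medians of the GFP_plus arrays, at least 36.1-fold lower. Limk1, a kinase that acts on cofilin downstream of Rock1, fell by 1.07 (limma adjusted p = 0.00184), but on 1 of its 3 probe sets only. The other 2 differed by -0.018 and 0.036.

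Rock1, the kinase that Rnd3 binds, was higher by 0.29 on its brightest probe set (limma adjusted p = 0.0116). Of its 5 probe sets 2 were called higher and 1 lower (-0.26), so the gene has no single direction, and the poly-A scale gave -0.11. Arhgap5, a GTPase-activating protein that Rnd3 binds, was higher by 0.76 (limma adjusted p = 0.00293), which was not called on the poly-A scale (0.35). Ppp1r12a, the targeting subunit of myosin phosphatase, and Myh9, a non-muscle myosin heavy chain, were higher by 0.30 and 0.20. Both turned on the poly-A scale, to -0.10 and -0.21, and Myh9 was not called without GFP_min replicate b (0.18). Mylk, myosin light chain kinase, was below the medians in GFP_min and at least 1.14-fold higher, a call lost when GFP_min replicate a or c or GFP_plus replicate a or b was left out (0.27 to 0.33).

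For Nxpe4 only 2 relatives could be tested. Nxpe3 differed by -0.12 (6.30 ± 0.25 against 6.18 ± 0.07) and Nxph3, a neurexophilin, by 0.20 (3.13 ± 0.14 against 3.33 ± 0.15, SD, n = 3 each). Limma called 0 of the 2, and 0 at an unadjusted p under 0.05. Nxpe2, Nxph1, Nxph2 and Nxph4 did not pass the filter.

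The genes whose pattern over the 6 arrays was most like each of the 4 were found by the root mean square distance in log2, after each probe set's own mean was taken off. Because the groups differ so much, this distance mostly reads the size of the fall, and it is given as a description. The 4 genes themselves lay 0.181 (Capn2 and Rnd3) to 0.365 (Nxpe4 and Ahnak) apart. For Nxpe4 the nearest were Hpgd, which breaks down prostaglandins (0.167), the chemokine receptor Ccr2 (0.22), Ms4a6b (0.242), Vcan (0.275) and Ms4a4c (0.277). For Capn2 they were Ms4a6b (0.137), the fractalkine receptor Cx3cr1 (0.140), the lipase Lpl (0.142), Tmem51 (0.149) and the transporter Abca9 (0.155).

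Ahnak's nearest were the peroxiredoxin Prdx4 (0.126), Pld4 (0.132), Rassf4 (0.140), Lpl (0.164) and Pid1 (0.195). Rnd3's were fibronectin, Fn1 (0.165), the matrix proteoglycan Vcan, versican (0.169), Ms4a6c (0.173), Capn2 itself (0.181) and Ms4a6b (0.197). This Ms4a6b probe set is not the one near Nxpe4 and Capn2. In Rnd3 and Fn1 alike GFP_min replicate b was the lowest of its group, at 8.40 and 8.57, a likeness that the distance itself favours. Ccr2, Cx3cr1, Fn1 and Ms4a6c are themselves on the monocyte marker list, as is Klf4, named next. With the level kept, the nearest 3 were Hpgd, Rassf4 and Pid1 for Nxpe4, another Ccr2 probe set, Abca9 and Prdx4 for Capn2, Klf4, Ifi209 and Ms4a4c for Ahnak, and Vcan, Fn1 and Tmem51 for Rnd3.

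Position was a further feature that the choice did not use. The nearest 3 tested genes on each side of the 4 genes in RefSeq order were 24 in all. In GFP_plus 5 were lower (20.8%) and 6 higher (25.0%), with a median of 0.10, against 27.6% and 21.0% of all genes. Counts of lower and higher neighbours were 3 and 12 after centring on the tested probe sets, 1 and 19 on the ribosomal scale and 11 and 1 on the poly-A scale.

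Beside Nxpe4, Rexo2, an RNA exonuclease gene next in order among those tested, fell by 2.72. It read 9.14, 9.22 and 8.90 in GFP_min and 6.51, 6.06 and 6.54 in GFP_plus (SE 0.15, limma adjusted p = 4.80e-07). Zpr1 on the other side of Nxpe4 fell by 0.90 (-0.37 and not called on the ribosomal scale), while Bud13, 4930448E22Rik, Rbm7 and Gm5617 were not called. Rbm7 differed by -0.24, and by -0.37 with a call without GFP_plus replicate b. Near Rnd3, Lypd6b was higher by 1.15 (4.44 ± 0.34 against 5.59 ± 0.09, SD, n = 3 each; limma adjusted p = 0.000614) and Nmi fell by 0.27, the latter 0.26 upward on the ribosomal scale. Epc2 and Rbm43 were higher by 0.38 and 0.25 and turned to -0.024 and -0.15 on the poly-A scale.

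Asrgl1, next to Ahnak in order among those tested, fell by 0.81 (called in 2 of 3 probe sets). Fbxo28 near Capn2 fell by 0.49 (1 of 3 probe sets). Trp53bp2, which lies between Fbxo28 and Capn2, differed by 0.33 and was not called. Its dimmer probe set was higher by 0.45 (limma adjusted p = 0.0398). On the ribosomal scale Asrgl1 was at -0.28 and not called, and Fbxo28 was 0.041 upward. Tlr5, the flagellin receptor, and 1700047M11Rik near Capn2 were higher by 0.42 and 0.31, and Fth1, the ferritin heavy chain, near Ahnak by 0.23. Tlr5 read 2.77, 2.98 and 2.76 in GFP_min, near the array medians. The rise of Fth1 was called in 1 of 2 probe sets, and the other differed by -0.04. On the poly-A scale 1700047M11Rik and Fth1 turned to -0.090 and -0.18. Tlr5 was not called without GFP_min replicate a or c or without GFP_plus replicate b or c (0.32 to 0.42). Rbm43 was not called without GFP_min replicate a or c or without GFP_plus replicate a or c (0.18 to 0.25).

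**Figure D4:**
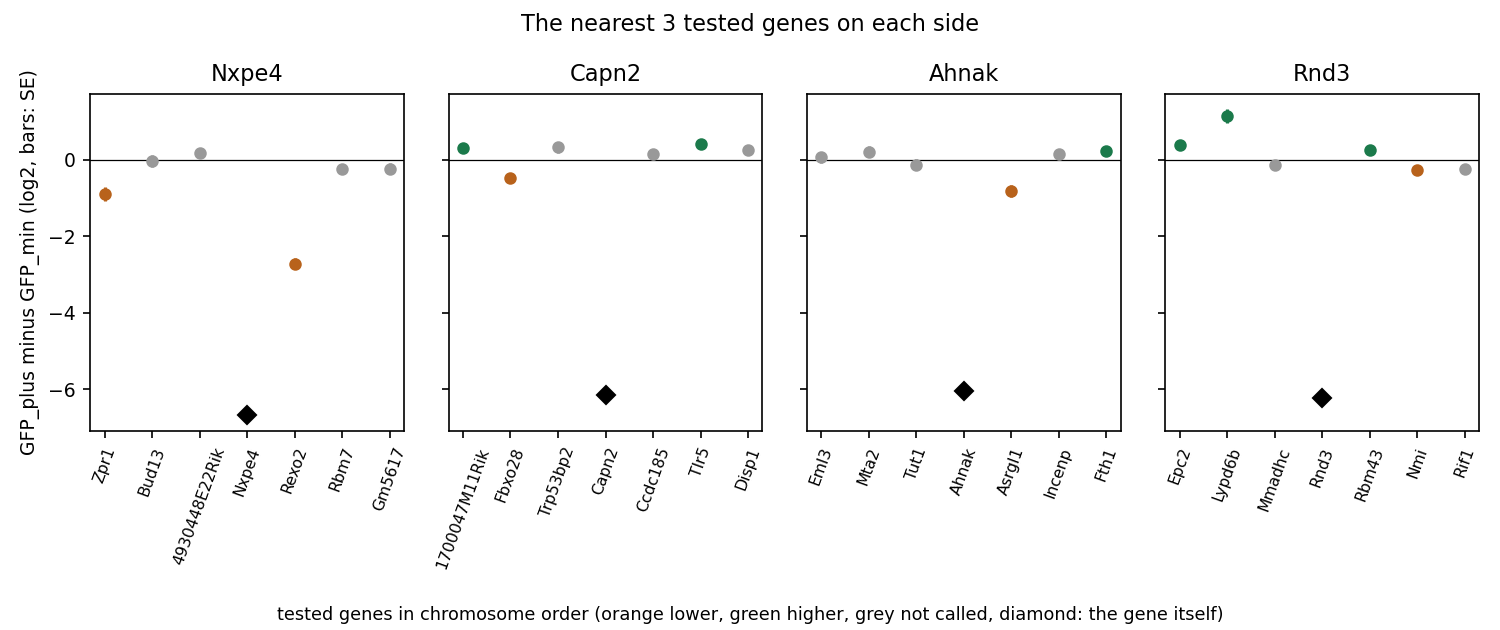
Difference GFP_plus minus GFP_min (log2, bars give the SE) of the nearest 3 tested genes on each side of Nxpe4, Capn2, Ahnak and Rnd3, in chromosome order, with the gene itself as a black diamond. Apart from Rexo2 at -2.72 and Lypd6b at 1.15, the neighbours lie within 1 log2 of 0.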

How the data were processed

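Total RNA was labelled with a 3′ IVT kit, per the labels' protocols. The authors deposited 1 table of log2 values for 45101 probe sets and 6 arrays. The submitters' processing notes name GCRMA, and its settings are not stated there. The log2 scale was inferred from the values. Genes were assigned by GEO's platform annotation, in which 34945 probe sets had 1 symbol, 932 several and 9160 none. For 34741 of the first the gene ID was found in RefSeq (GRCm38.p6), and the RefSeq symbol was used as the name.

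A probe set was tested if above its array's median on at least 3 arrays, which 22956 were, with 64 control probe sets left out. Groups were compared with limma 3.58.1 in R 4.3.3 (lmFit, eBayes with an intensity trend) and Benjamini-Hochberg adjustment over every probe set tested, at a threshold of 0.05. A gene is its brightest tested probe set with 1 symbol. Where a group lay below the medians of all its arrays, the fold is a bound against those medians. The number of arrays limits the precision.

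The 4 genes and all lists were chosen with earlier results of these data known. A further list is not reported here. Named genes are up to 5 called genes per list and direction (or the 2 largest differences where none was called), the nearest 3 tested neighbours on each side and the nearest 5 patterns (3 with the level kept). Alternatives changed the filter, variance model, array weights, scaling, probe sets of a gene, floor, the replicate letter as a block and each sample left out. Samples with the same replicate letter were not treated as pairs. Their deviations from the group means correlated at -0.18, -0.30 and -0.22. With 3 samples per group this cannot show whether they shared a mouse or a sort. The fit was tested on simulated data. Figures were drawn with matplotlib 3.10.9.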

Additional observations from a re-analysis of the deposited data

How the results depend on the processing

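The direction of the 4 falls was the same under every alternative run, and scaling moved their size. The falls chose these genes, and scaling shifts of at most 0.53 were too small to turn them. The kept direction is therefore no test of the falls. Centring on the tested probe sets, on ribosomal protein genes and on poly-A controls gave -6.48, -6.15 and -7.08 for Nxpe4 and -5.93, -5.61 and -6.54 for Capn2. The last 2 scalings gave -5.53 and -6.46 for Ahnak and -5.68 and -6.62 for Rnd3. The same 3 scalings gave 4472, 7358 and 420 higher genes overall (1213 and 6028 lower under the last 2). Among related genes they gave 26, 37 and 1 higher (5 and 24 lower under the last 2), and among neighbours 12, 19 and 1 higher and 3, 1 and 11 lower. A value was labelled reversed if its sign changed and the gene was called in the main fit or under the alternative. Sign changes of genes called in neither were not counted. Of 49 named related and neighbouring genes, 22 values of 728 under an alternative were labelled reversed. On the poly-A scale these were 1700047M11Rik (-0.090), Anxa2 (-0.24), Capn12 (-0.068), Epc2 (-0.024), Flna (-0.066), Fth1 (-0.18), Myh9 (-0.21), Mylk (-0.082), Ppp1r12a (-0.10), Pxn (-0.13), Rbm43 (-0.15), Rock1 (-0.11) and Tln1 (-0.099). On the ribosomal scale they were Bud13 (0.49), Fbxo28 (0.041), Mmadhc (0.39), Nmi (0.26), Nxpe3 (0.41), Rbm7 (0.29), Rif1 (0.28), Sptbn1 (0.33) and Tut1 (0.40). These reversals follow from the scalings' own shifts of 0.53 and -0.41. With the replicate block 7 related genes were lower and 11 higher, and all genes gave 2603 and 1737. Leaving out 1 sample gave 8 to 10 and 11 to 15 related genes. Values at or below the array medians carry little information on how low a gene is, which limits the size of the falls in GFP_plus.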
